A study of Homo sapiens with 12 samples.

Results

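NF-kB is a family of transcription factors whose activity is read out through a small set of inducible genes. In this study 10 of them were followed in human HCT116 cells under stress of the mitochondrion or of the endoplasmic reticulum. They are LCN2, the chemokine genes CXCL1, CXCL2, CXCL3 and CXCL8, the feedback inhibitor genes NFKBIA and TNFAIP3, the NF-kB subunit genes NFKB2 and RELB, and BIRC3. The genes were chosen by symbol, with earlier results of these data known. All 10 were found among the 60708 genes of the deposited count tables. All of them passed the filter on low counts in every comparison.

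HCT116 is a colorectal carcinoma cell line, here labelled wild type. Cells were treated for 24 h with oligomycin A (OA), which blocks the mitochondrial ATP synthase, or with tunicamycin (TN), which blocks N-linked glycosylation in the endoplasmic reticulum. Each compound had 3 biological replicates and 3 DMSO replicates of its own, giving 12 RNA-seq libraries, and the DMSO groups share no library. The labels give 5 µg/ml for both compounds, whereas the study's methods give another dose for OA.

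In resting cells NF-kB dimers are kept inactive by inhibitor proteins such as IκBα, the product of NFKBIA. Signals from cytokine or pattern recognition receptors activate the IκB kinase, the inhibitor is degraded, and the dimers enter the nucleus and bind κB sites in promoters. A slower, non-canonical branch processes the NFKB2 protein and acts through RELB. Many targets feed back on the pathway, among them NFKBIA, TNFAIP3 and BIRC3, while the CXCL chemokines of this set recruit neutrophils and LCN2 binds bacterial iron carriers.

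The promoters of these genes show what the members have in common in sequence. RefSeq promoter windows (GRCh38.p14, 250 bases before to 50 after an annotated start) were found for 9 of the 10 genes, RELB being the gene without an entry. The κB consensus, searched on both strands, was present in at least 1 window of 8 of these 9 genes, and CXCL8 was the gene without it. Of all 35116 windows, 2075 (5.91%) held the consensus. That share is per window and not per gene, since a gene such as NFKB2 can have several windows. The shorter motif GGAATTTCC, searched on both strands and chosen after the sequences were seen, lay in CXCL1, CXCL2, CXCL3, CXCL8 and NFKBIA and in 0.461% of all windows. It overlaps the consensus match in each of these genes that has one. A match describes the letters only and is not evidence of binding. Shown here are LCN2 and the 4 chemokine genes, which gave the largest fitted changes with OA when OA replicate 2 was included. BIRC3, the gene whose levels were not led by that replicate, is shown too. The sequences are given 5′ to 3′ on the strand of the gene, with the matched bases of either motif in capitals.
LCN2, chr9:128149203-128149502, plus strand: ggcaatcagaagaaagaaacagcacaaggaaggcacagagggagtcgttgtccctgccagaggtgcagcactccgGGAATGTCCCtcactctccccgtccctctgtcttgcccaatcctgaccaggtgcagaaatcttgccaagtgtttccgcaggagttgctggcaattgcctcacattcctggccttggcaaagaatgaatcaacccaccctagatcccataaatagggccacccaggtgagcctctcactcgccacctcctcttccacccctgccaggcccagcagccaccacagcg
CXCL1, chr4:73869143-73869442, plus strand: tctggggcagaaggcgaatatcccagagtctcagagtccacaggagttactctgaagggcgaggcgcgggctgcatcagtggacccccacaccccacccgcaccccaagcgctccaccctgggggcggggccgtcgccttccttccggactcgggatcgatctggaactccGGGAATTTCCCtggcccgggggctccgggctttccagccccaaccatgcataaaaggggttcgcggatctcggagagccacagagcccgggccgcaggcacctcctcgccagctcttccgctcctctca
CXCL2, chr4:74099146-74099445, minus strand: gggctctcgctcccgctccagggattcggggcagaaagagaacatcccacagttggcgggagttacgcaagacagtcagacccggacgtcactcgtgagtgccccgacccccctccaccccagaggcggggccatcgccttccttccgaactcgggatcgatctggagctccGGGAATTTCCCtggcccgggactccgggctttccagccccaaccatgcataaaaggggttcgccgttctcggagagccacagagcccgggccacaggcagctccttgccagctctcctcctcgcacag
CXCL3, chr4:74038640-74038939, minus strand: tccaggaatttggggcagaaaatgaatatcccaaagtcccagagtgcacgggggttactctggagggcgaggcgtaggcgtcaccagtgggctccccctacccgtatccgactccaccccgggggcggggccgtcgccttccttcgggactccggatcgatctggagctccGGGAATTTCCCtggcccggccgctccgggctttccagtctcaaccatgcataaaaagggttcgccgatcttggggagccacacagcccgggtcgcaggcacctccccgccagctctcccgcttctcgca
CXCL8, chr4:73740319-73740618, plus strand: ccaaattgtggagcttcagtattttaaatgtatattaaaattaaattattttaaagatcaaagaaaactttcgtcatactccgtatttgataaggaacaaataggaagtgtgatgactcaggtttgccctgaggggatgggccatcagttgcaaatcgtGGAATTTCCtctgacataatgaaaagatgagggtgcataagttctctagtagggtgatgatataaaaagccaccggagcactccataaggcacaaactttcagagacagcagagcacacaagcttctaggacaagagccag
BIRC3, chr11:102317234-102317533, plus strand: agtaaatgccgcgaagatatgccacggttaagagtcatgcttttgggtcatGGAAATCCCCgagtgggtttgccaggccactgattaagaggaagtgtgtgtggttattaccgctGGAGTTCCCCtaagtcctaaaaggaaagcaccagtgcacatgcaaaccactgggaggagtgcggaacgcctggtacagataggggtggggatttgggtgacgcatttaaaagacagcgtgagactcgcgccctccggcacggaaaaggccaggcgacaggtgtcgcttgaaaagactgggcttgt

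Distances are from the RefSeq start of each window, which can differ from the gene starts given below. The LCN2 window lies wholly downstream of the LCN2 gene start given there. In LCN2 the match began 175 bases before the RefSeq start. In CXCL1 and CXCL3 the first match began at 79 bases before it and in CXCL2 at 78, so that the 3 related genes carry the motif at nearly the same place. The GGAATTTCC of CXCL8 lay 91 bases upstream, and BIRC3 had matches at 199 and 135 bases upstream. Of the genes not shown, NFKBIA had a match at 81 bases, TNFAIP3 at 67 and 55 bases, and NFKB2 in windows of its downstream starts.

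On hg38, the chemokine genes lie together on chromosome 4 in the order CXCL8 (73740519 to 73743716, plus strand), CXCL1 (73869393 to 73871308, plus strand), CXCL3 (74036589 to 74038807, minus strand) and CXCL2 (74097040 to 74099196, minus strand), within 358.7 kb. CXCL1 and CXCL2 transcripts aligned over 1113 bases at 88.5% identity, and CXCL3 aligned to them at 82.0% and 82.6% over 610 and 619 bases. Reads from these 3 genes could therefore have been shared or dropped in counting, and the split between them is uncertain. LCN2 lies on chromosome 9 (128149071 to 128153453, plus strand), NFKBIA on chromosome 14 (35401079 to 35404749, minus strand) and TNFAIP3 on chromosome 6 (137867214 to 137883314, plus strand). NFKB2 lies on chromosome 10 (102394110 to 102402524, plus strand), RELB on chromosome 19 (45001461 to 45038192, plus strand) and BIRC3 on chromosome 11 (102317484 to 102339403, plus strand). Exons of TNFAIP3 and BIRC3 overlap opposite-strand genes (WAKMAR2 and ENSG00000288528), and the strand setting of the counts is not given in the sources used here.

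The libraries held 9884124 to 24983573 counts. The noncoding RNA gene RN7SL1 took 6.02% to 8.11% of them in OA's DMSO group and 8.40% to 17.9% with OA, and 6.23% to 7.50% in TN's DMSO group and 9.22% to 13.3% with TN, so that each treated library was above its DMSO group. Its part in the results was not tested. The share was highest in OA replicate 2, which also had the lowest TMM scaling factor, 0.732, and TN replicate 1 had the highest share with TN and a factor of 0.796. TN replicate 1 was the highest TN library for 6 of the 10 genes. OA replicate 2 stood apart in the genes described here too, so OA changes of the 10 genes are given with and without it. Epithelial markers summed to 4238 to 9075 CPM (counts scaled to library size and by TMM) in each library, although CDX1 was at 0 in all and VIL1 never exceeded 3 counts. Of the 8 epithelial markers tested, CLDN4, CDH1 and CLDN3 rose with OA (log2 fold changes of 1.59, 1.81 and 1.66) and with TN (1.70, 1.69 and 1.43), against 4.48% and 6.99% of all genes called. CDX2 was lower in every OA library, at -0.76 ± 0.29 with an adjusted p of 0.164 in edgeR's test, which was 0.0338 with the replicate number as a block. EPCAM had a log2 fold change of -0.23 ± 0.36 with OA, which turned to 0.099 ± 0.22 without OA replicate 2. The part of these markers in the results was not tested.

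Levels with DMSO were highest for NFKBIA in both experiments. In the DMSO libraries of OA, NFKBIA averaged 11.1 CPM per kb of exon, NFKB2 4.59 and RELB 2.57, and no range of these 3 overlapped the next. The other 7 genes lay between 0.193 and 0.622 CPM per kb and overlapped their neighbours in the order. With OA the means were 36.8 CPM per kb for LCN2, 23.9 for NFKBIA, 14.8 for NFKB2, 10.7 for RELB and 7.65 for CXCL8, and each of these ranges overlapped the next. The mean of LCN2 came first through OA replicate 2 alone, since its levels were 6.38, 97.8 and 6.11 CPM per kb and lay below those of NFKBIA (13.4 and 16.9) and NFKB2 (8.76 and 11.4) in replicates 1 and 3. With TN, LCN2 and NFKBIA had overlapping levels, with means of 23.1 and 21.1 CPM per kb, and LCN2 was above NFKBIA in TN replicate 1 only (37.0 against 30.2). In TN's DMSO group LCN2 was last at 0.520. In that group CXCL8 averaged 8.53 CPM per kb, second to NFKBIA at 19.3 and overlapping NFKB2 at 5.78, with a range of 0.0846 to 13.6 over its 3 libraries.

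The comparison of OA with its DMSO libraries asked how the mRNA of the 10 genes moved when ATP synthase was blocked. NF-kB activity itself was not measured. LCN2, CXCL2, CXCL3 and CXCL8 rose, from 12.4-fold for CXCL2 to 81.3-fold for LCN2. LCN2 and CXCL3 had fewer than 10 counts in some DMSO libraries. They were not tested where every library had to have at least 10. All 10 genes had positive fitted changes, with a median log2 fold change of 2.39 against -0.022 over all genes tested. A gene was said to have risen or fallen where the quasi-likelihood test of edgeR, Benjamini-Hochberg adjusted over all genes, gave a p under 0.05, which held for 4 of the 10 genes, against 4.48% of all 14681 genes tested. In 8 of the 10 genes every OA library lay above every DMSO library, as it did for 16.3% of all genes, and the exceptions were TNFAIP3 and BIRC3. Because the 10 genes were chosen with earlier results known, these contrasts with all genes are no separate evidence.

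LCN2 encodes lipocalin 2, a secreted protein of the antibacterial response. Counts of 9, 39 and 1 were found with DMSO (0.472, 1.54 and 0.0508 CPM) and of 138, 1564 and 94 with OA (10.2, 156 and 9.75 CPM). Every OA library was above every DMSO library, and OA replicate 2 was 15.3 times the next OA library. The log2 fold change was 6.34 ± 1.45 (SE, n = 3 per group) with an adjusted p of 0.0494 in edgeR's test. Without OA replicate 2 it was 3.77 ± 0.80 with an adjusted p of 0.0398, so the size but not the call rested on that library. The size also moved with a DMSO library, to 7.78 without DMSO replicate 2, where the gene did not pass. Scaling to library totals gave 5.91 with an adjusted p of 0.0648 in edgeR's test, and DESeq2 gave no adjusted p for this gene.

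CXCL8, or interleukin 8, is the main neutrophil chemoattractant of the set. DMSO libraries had 0.996, 0.474 and 1.02 CPM (19, 12 and 20 counts), and OA libraries 14.2, 35.4 and 9.75 CPM (193, 355 and 94 counts). The groups were far apart and the lowest OA library was still well above the range of OA's own DMSO libraries. In the TN experiment, which was scaled separately, the DMSO libraries had 0.219, 30.9 and 35.1 CPM. Levels like those with OA were thus also found with DMSO alone. The log2 fold change of OA against its own DMSO libraries was 4.58 ± 0.61 with an adjusted p of 0.0157 in edgeR's test. It was 3.88 ± 0.41 without OA replicate 2.

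CXCL2 was the steadiest riser among the chemokines. It went from 0.629, 0.632 and 0.508 CPM to 4.42, 10.8 and 7.05 CPM, with a log2 fold change of 3.63 ± 0.45 and an adjusted p of 0.0157 in edgeR's test. OA replicate 2 was 1.53 times the next OA library here, and without it the change was 3.25 ± 0.39. CXCL3 went from 0.419, 0.316 and 0.559 CPM to 2.88, 15.4 and 3.42 CPM, a log2 fold change of 4.05 ± 0.76 with an adjusted p of 0.0317 in edgeR's test. Its rise was 2.85 ± 0.47 without OA replicate 2.

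CXCL1 did not pass edgeR's test. Its levels were 1.05, 0.474 and 1.02 CPM with DMSO and 1.11, 13.0 and 2.80 CPM with OA, and the OA libraries lay above the DMSO libraries only narrowly in replicate 1. The log2 fold change of 2.73 ± 0.87 had an adjusted p of 0.110 in edgeR's test and dropped to 1.18 ± 0.59 without OA replicate 2. It passed in DESeq2 (adjusted p of 0.00988), as it did in edgeR's test without the filter on low counts (0.00300) or without OA replicate 1 (0.0367). Together the 4 chemokine genes had 48 to 61 counts with DMSO in this experiment and 222 to 747 with OA. CXCL8 made up 25.0% to 32.8% of these counts with DMSO and 42.3% to 62.9% with OA.

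**Figure D1:**
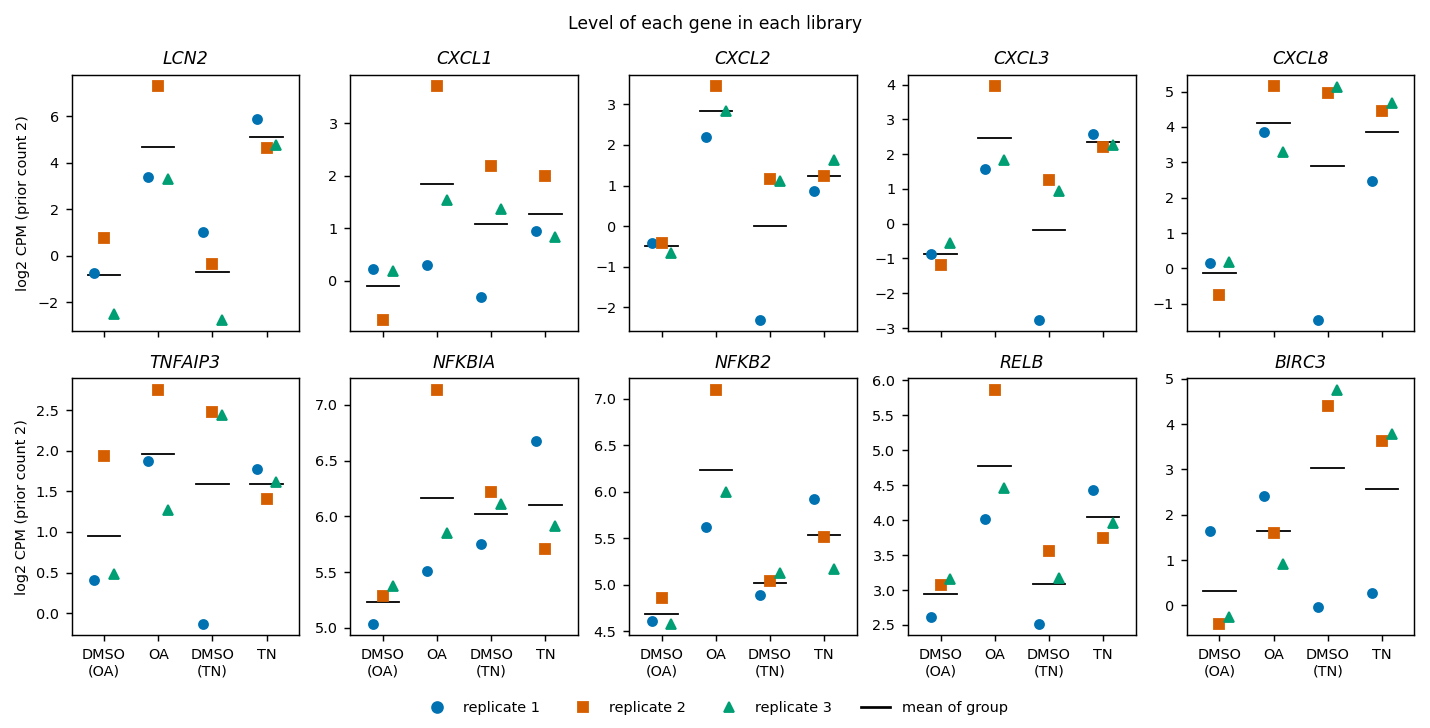
Each panel plots log2 CPM (prior count 2) of 1 gene in the 12 libraries, by group, with symbols for the replicate number and a line at the group mean. OA replicate 2 was the highest OA library for 9 of the 10 genes, and TN DMSO replicate 1 was the lowest of its group for 9.

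The subunit genes were close to the threshold. NFKB2, which encodes the precursor of the non-canonical branch, had 24.3, 28.8 and 23.8 CPM with DMSO and 48.9, 136 and 63.6 CPM with OA. Its log2 fold change was 1.69 ± 0.40 with an adjusted p of 0.0525 in edgeR's test. RELB, the partner of that precursor's product, had 5.98, 8.30 and 8.80 CPM with DMSO and 16.0, 58.0 and 22.0 CPM with OA, a log2 fold change of 2.05 ± 0.49 with an adjusted p of 0.0564. Both genes did pass without OA replicate 2, where the change of NFKB2 was 1.12 ± 0.23 with an adjusted p of 0.0355 in edgeR's test and that of RELB was 1.29 ± 0.29 with 0.0458. They also passed with the replicate number as a block, with adjusted p-values of 0.00230 and 0.00258 in edgeR's test.

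The feedback inhibitors had smaller differences. NFKBIA had 32.7, 38.9 and 41.3 CPM with DMSO and 45.4, 140 and 57.4 CPM with OA, without overlap. Its log2 fold change was 1.11 ± 0.42 with an adjusted p of 0.166 in edgeR's test. With the replicate block NFKBIA passed at 0.0337, but without OA replicate 2 its log2 fold change was 0.44 ± 0.23. TNFAIP3, which encodes the ubiquitin-editing protein A20, had 1.21, 3.71 and 1.27 CPM with DMSO and 3.54, 6.59 and 2.28 CPM with OA, and the groups overlapped. Its log2 fold change of 0.99 ± 0.59 had an adjusted p of 0.347 in edgeR's test and was 0.48 ± 0.60 without OA replicate 2. BIRC3, a ubiquitin ligase that restrains cell death, had 2.99, 0.632 and 0.712 CPM with DMSO and 5.24, 2.89 and 1.76 CPM with OA. It was the gene for which OA replicate 2 was not the highest, and its log2 fold change of 1.21 ± 0.70 had an adjusted p of 0.336 in edgeR's test and was 1.35 ± 0.75 without that library. The change was 0.68 without OA replicate 1 and 2.35 without DMSO replicate 1.

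With the replicate number as a block, 7 of the 10 genes passed in OA, as did 26.7% of all genes, and the additions were NFKBIA, NFKB2 and RELB. Each of the 10 genes was higher in the OA library than in the DMSO library of the same number in 3 of 3 numbers, as were 27.8% of all genes. These differences in log2 CPM spanned 4.11 to 6.55 for LCN2, 3.11 to 5.89 for CXCL8 and 0.069 to 4.45 for CXCL1. Leaving out OA replicate 2 gave 6 passing genes, against 5.53% of all genes, and a median log2 fold change of 1.32. Without both libraries numbered 2, LCN2, CXCL2, CXCL3, CXCL8 and NFKB2 passed, against 5.36% of all genes. Leaving out OA replicate 3 left CXCL2 and CXCL8, against 0.587% of all genes, and leaving out OA replicate 1 added CXCL1, NFKB2 and RELB, which made 7 against 7.57%. With any 1 of the 3 DMSO libraries left out, none of the 10 passed in edgeR's test, and of all genes 3 to 5 did, although all 10 changes stayed positive.

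**Figure D2:**
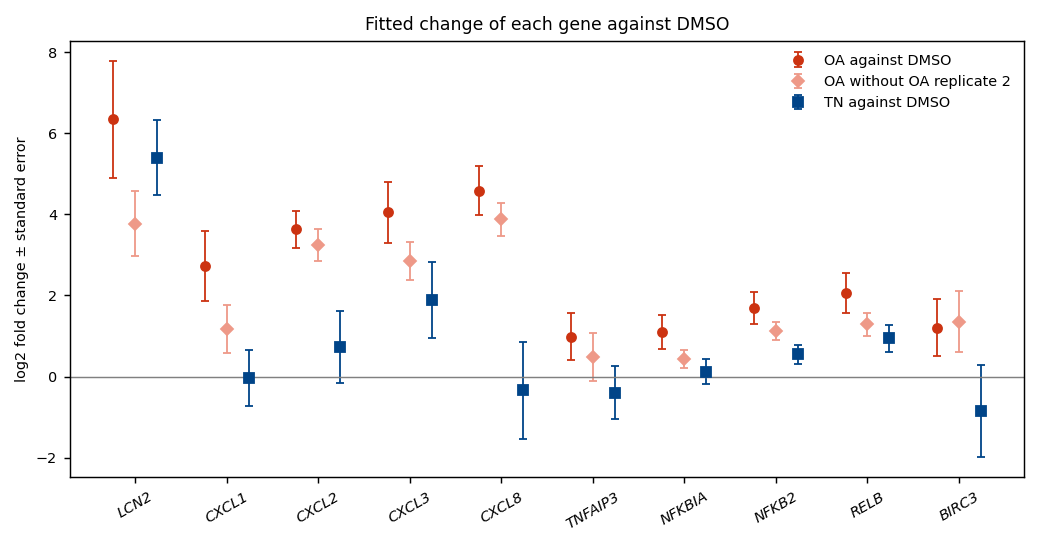
The plot gives the fitted log2 fold change of each gene with its standard error, for OA, for OA without replicate 2 and for TN, each against its own DMSO libraries. LCN2 stands at 6.34 with OA and 5.40 with TN, whereas CXCL8 stands at 4.58 with OA and at -0.34 with TN.

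The comparison of TN with its own DMSO libraries asked the same of stress in the endoplasmic reticulum. LCN2 rose 42.2-fold and was the 1 gene of the 10 to pass the test, against 6.99% of the 14432 genes tested. The other 9 genes had adjusted p-values of 0.142 to 0.981 in edgeR's test. Of all 10, 6 had positive fitted changes, with a median log2 fold change of 0.34 against -0.031 over all genes. The TN libraries lay wholly above the DMSO libraries for LCN2, CXCL3, NFKB2 and RELB, as for 15.9% of all genes.

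LCN2 had 34, 11 and 0 counts in the DMSO libraries of TN (1.86, 0.626 and 0 CPM) and 560, 264 and 316 counts with TN (59.0, 24.3 and 27.1 CPM). The groups were far apart, with TN replicate 1 the highest. The log2 fold change was 5.40 ± 0.93 with an adjusted p of 0.0175 in edgeR's test. The adjusted p was 0.0982 without DMSO replicate 2, 0.0530 without TN replicate 2 and 0.0562 without TN replicate 3, and the change then lay between 5.15 and 5.62. With the replicate block it was 5.55 ± 0.47 with an adjusted p of 0.000251.

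CXCL3 had 0, 2.22 and 1.78 CPM with DMSO and 5.79, 4.43 and 4.64 CPM with TN. Its log2 fold change of 1.90 ± 0.94 had an adjusted p of 0.267 in edgeR's test. RELB had 5.59, 11.6 and 8.83 CPM with DMSO and 21.4, 13.3 and 15.4 CPM with TN, a log2 fold change of 0.94 ± 0.34 with an adjusted p of 0.142. NFKB2 had 29.5, 32.6 and 34.8 CPM against 60.3, 45.5 and 35.8 CPM, a log2 fold change of 0.55 ± 0.24 with an adjusted p of 0.225 in edgeR's test. In these 3 genes every TN library was above the DMSO libraries, and the lead was narrow for NFKB2 replicate 3 and RELB replicate 2.

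The DMSO libraries of TN differed strongly among themselves in the chemokines and BIRC3. CXCL8 had 0.219, 30.9 and 35.1 CPM in DMSO replicates 1, 2 and 3 (4, 543 and 473 counts) and 5.37, 21.6 and 25.3 CPM with TN (51, 234 and 295 counts). BIRC3 followed the same replicate numbers, with 0.821, 21.1 and 26.8 CPM with DMSO and 1.05, 12.3 and 13.6 CPM with TN. In both genes replicate 1 was low with and without TN and replicates 2 and 3 were high. The log2 fold changes with TN were -0.34 ± 1.20 for CXCL8 and -0.85 ± 1.13 for BIRC3, with adjusted p-values of 0.899 and 0.705 in edgeR's test.

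A term for the replicate number was tested after the values were seen, so it is no separate evidence of the pattern. In the TN experiment it passed for 2 of the 10 genes, as for 16.6% of all genes. These were CXCL8, with an adjusted p of 0.0444 in edgeR's test, and BIRC3, with 0.00390. In the OA experiment the same term passed for 1 of the 10, LCN2, with an adjusted p of 0.00534 in edgeR's test, as for 12.6% of all genes. Neither count stood out from its background. The labels say no more than that the numbers mark biological replicates. DMSO replicates 2 and 3 of TN also held 75 and 60 counts of CXCL10 and 109 and 69 of CCL5, chemokine genes of the interferon response, against 0 and 2 in replicate 1. With TN these genes had 0, 4 and 15 counts and 0, 21 and 30 counts in replicates 1 to 3. With the replicate number as a block, the TN change was 0.28 ± 0.64 for CXCL8 and -0.70 ± 0.26 for BIRC3, with adjusted p-values of 0.775 and 0.0816 in edgeR's test, and LCN2 remained the 1 gene of the 10 to pass, against 27.1% of all genes.

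Read within a replicate number, the TN differences in CXCL8 went in opposite directions. The log2 difference was 3.91 in replicate 1, -0.52 in replicate 2 and -0.47 in replicate 3. CXCL1 gave 1.27, -0.17 and -0.55, TNFAIP3 1.90, -1.08 and -0.82, and NFKBIA 0.93, -0.51 and -0.20. BIRC3 gave 0.31, -0.77 and -0.97. LCN2, CXCL2, CXCL3, NFKB2 and RELB were higher with TN in 3 of 3 numbers, as were 27.1% of all genes, from 4.88 to 7.53 for LCN2 and from 0.066 to 3.18 for CXCL2. The upper values rest on DMSO libraries with 0 counts of LCN2 (replicate 3) and 1 count of CXCL2 (replicate 1). Their size depends on the prior count of 2 and is not resolved.

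**Figure D3:**
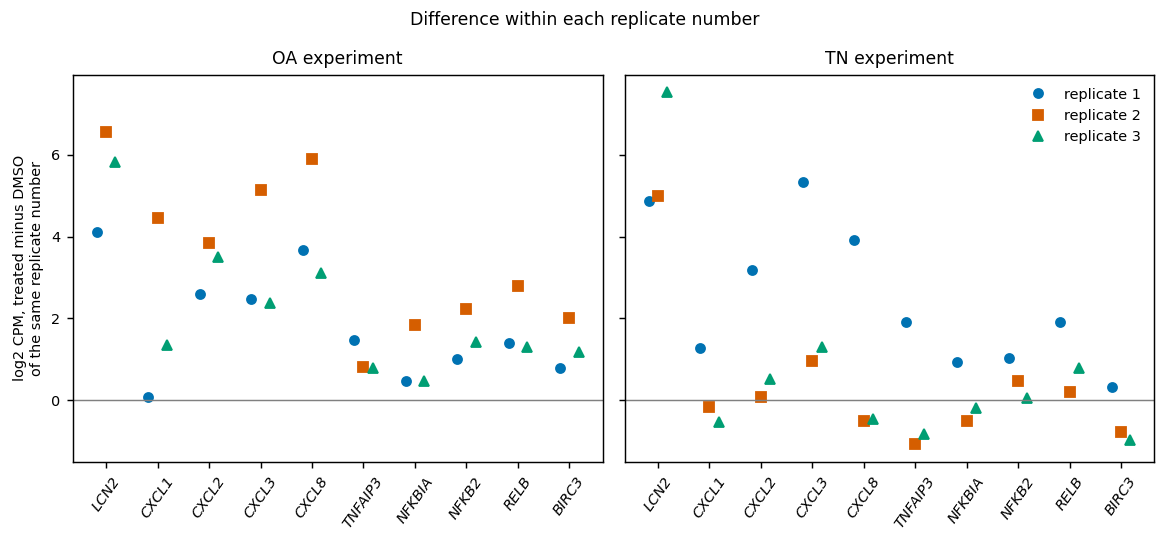
Points give log2 CPM (prior count 2) of a treated library minus the DMSO library of the same replicate number, for OA (left) and TN (right). All OA points lie above 0, whereas for CXCL1, CXCL8, TNFAIP3, NFKBIA and BIRC3 with TN the point of replicate 1 is above 0 and those of replicates 2 and 3 are below.

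The remaining members under TN had overlapping groups. CXCL1 had 0.657, 4.38 and 2.45 CPM with DMSO and 1.79, 3.87 and 1.63 CPM with TN. CXCL2 had 0.0548, 2.11 and 2.00 CPM with DMSO and 1.69, 2.21 and 2.92 CPM with TN. TNFAIP3 had 0.767, 5.41 and 5.27 CPM against 3.27, 2.49 and 2.92 CPM. NFKBIA had 53.7, 74.1 and 68.9 CPM against 102, 52.2 and 60.0 CPM. In the first 3 of these genes DMSO replicate 1 was the lowest of the 6 libraries, and in NFKBIA TN replicate 1 was the highest.

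When both libraries numbered 1 were left out, a fit chosen after the values were seen, 8 of the 10 genes passed in TN, against 42.8% of all genes, with 2 libraries in each group. LCN2, CXCL3, NFKB2 and RELB were higher, at log2 fold changes of 6.23, 1.24, 0.34 and 0.55. CXCL8, TNFAIP3, NFKBIA and BIRC3 were lower, at -0.42, -0.91, -0.28 and -0.81. The adjusted p-values of these 8 genes ran from 7.29e-13 for LCN2 to 0.0376 for NFKB2 in edgeR's test. The libraries kept were close to each other, with a chi-square per gene of 7.34 within DMSO and 6.25 within TN. Pairs that included a library numbered 1 had 71.0 to 111. These p-values therefore measure a spread smaller than that between all the replicates.

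To set the stressors against each other, the OA change minus the TN change was tested over all 12 libraries. All 10 differences were positive, but none passed in edgeR's test with adjusted p-values of 1.00 throughout, and over all 15429 genes 0 passed (0%) and 348 (2.26%) had an unadjusted p under 0.05. CXCL8 had the largest difference, 4.75 ± 1.56 on the log2 scale with an unadjusted p of 0.0103. CXCL2 differed by 2.77 ± 1.02, CXCL1 by 2.60 ± 1.16 and NFKB2 by 1.05 ± 0.43, with unadjusted p-values of 0.0190, 0.0451 and 0.0319 in edgeR's test. LCN2 differed by 0.83 ± 1.69 with an unadjusted p of 0.634. Without OA replicate 2, 9 of the 10 differences were positive and none passed in edgeR's test, with LCN2 at -1.60, CXCL1 at 1.16, CXCL8 at 4.12, CXCL2 at 2.46 and NFKB2 at 0.56. CXCL3 then stood at 0.92 in place of 2.01, RELB at 0.33 in place of 1.00 and NFKBIA at 0.31 in place of 0.89. Without DMSO replicate 1 of TN, 9 were again positive and LCN2 stood at -0.55. DESeq2 called 2 genes of all, neither of them among the 10. On simulated data this contrast recovered 8% of genes changed by a factor of 4, all drawn from genes above a minimum mean count. Differences of that size were thus mostly not detectable.

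A wider look at the pathway used a list of 40 signalling components outside the 10 genes. With OA, 38 were tested, of which 1 rose and 1 fell, near the 4.48% of all genes, and the median log2 fold change was -0.00024. RBCK1, a subunit of the linear ubiquitin ligase that sustains NF-kB signalling, rose by 3.36 ± 0.37 with an adjusted p of 0.0116 in edgeR's test. TRAF2, an adaptor of tumour necrosis factor receptors, fell by 1.27 ± 0.28 on the log2 scale with an adjusted p of 0.0471 in edgeR's test. The receptor gene TNFRSF1A came next, at a log2 fold change of 1.50 and an adjusted p of 0.0525, and passed with the replicate block at 0.00143. With that block 6 components rose and 3 fell with OA, against 26.7% of all genes, and 4 rose and 6 fell with TN, against 27.1%, so neither count stood out from its background. Without OA replicate 2, RBCK1 (2.93), TRAF2 (-1.33) and TNFRSF1A (1.06) passed in edgeR's test, against 5.53% of all genes.

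With TN, 37 of these components were tested, 2 rose and 1 fell, near the 6.99% of all genes, and the median was -0.15. RBCK1 rose by 2.67 ± 0.34 with an adjusted p of 0.00677 in edgeR's test and TNFRSF1A by 1.19 ± 0.27 with 0.0410. MYD88, the adaptor of Toll-like and interleukin 1 receptors, fell by 1.53 ± 0.28 on the log2 scale with an adjusted p of 0.0211. TRAF2 had a log2 fold change of -1.04 with an adjusted p of 0.0695 in edgeR's test, which was 0.00343 with the block. RBCK1 had 42.6, 65.0 and 52.2 CPM with DMSO and 498, 265 and 257 CPM with TN, and 35.0, 52.4 and 39.8 CPM with DMSO and 310, 659 and 342 CPM with OA. Its groups did not overlap in either experiment.

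Of 43 other NF-kB targets, 22 were tested with OA and 6 rose, none fell, against 4.48% of all genes, with a median log2 fold change of 0.94 against -0.022 over all genes. They were PLAU and PLAUR, which encode urokinase and its receptor, the syndecan gene SDC4, the adhesion molecule gene ICAM1, and the stress response genes IER3 and GADD45B. Their log2 fold changes ran from 1.46 for IER3 to 2.92 for PLAU, with adjusted p-values of 0.0116 to 0.0466 in edgeR's test. Without OA replicate 2 these 6 genes again passed, against 5.53% of all genes, at log2 fold changes of 1.10 for IER3 to 2.67 for PLAU, and the median of the list was 0.42. This list too was chosen with earlier results known, so its contrast with all genes is no separate evidence. With TN, 24 were tested and 2 rose, near the 6.99% of all genes, PLAU by 2.79 ± 0.22 with an adjusted p of 0.00240 and SDC4 by 1.09 ± 0.25 with 0.0430, and the median was 0.64. ICAM1 was next at 1.22 ± 0.34 with an adjusted p of 0.0731, and with the replicate block ICAM1, PLAUR and IER3 passed at 0.0183, 0.00795 and 0.0343 in edgeR's test. In all, 9 of these targets rose and 2 fell with OA under the block, against 26.7% of all genes, and 8 rose and 2 fell with TN, against 27.1%. Those that fell were SOD2 and TNFAIP8 with OA, at log2 fold changes of -0.92 and -1.35. With TN they were TNFAIP8 and CXCL10, at -1.07 and -2.48. PLAU had 25.1 to 41.9 CPM in the DMSO libraries of OA against 188 to 329 CPM with OA, and 22.6 to 29.7 CPM in those of TN against 164 to 200 CPM with TN.

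**Figure D4:**
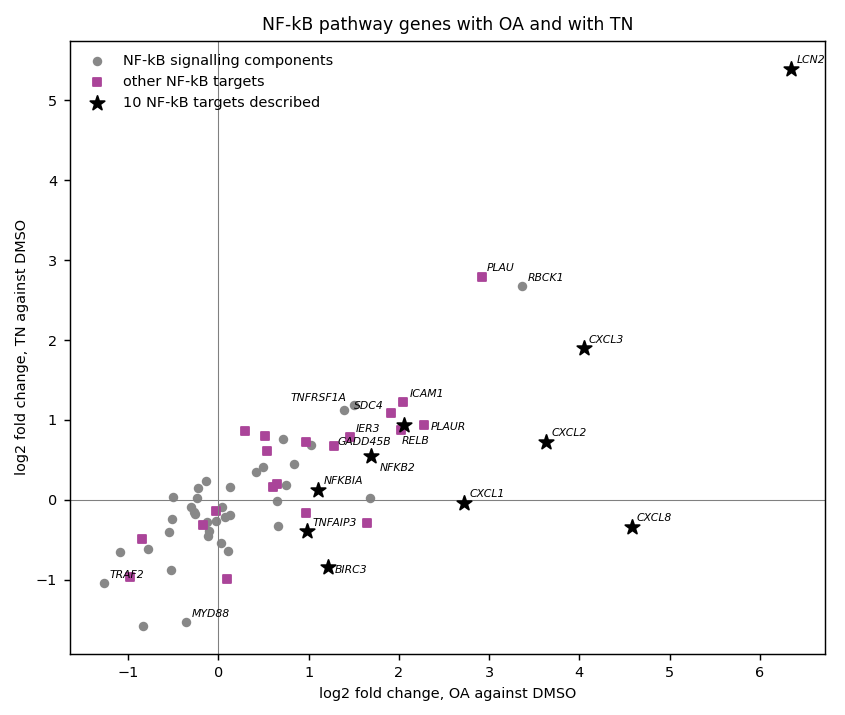
Each point is a gene tested in both experiments, with its fitted log2 fold change with OA on the horizontal axis and with TN on the vertical axis. Gray points are signalling components, squares other NF-kB targets and stars the 10 genes, and CXCL8 lies at 4.58 and -0.34, far from LCN2 at 6.34 and 5.40.

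Of the 6 receptor genes of the secreted factors, 5 had at most 7 counts in any library. CXCR1 had at most 5 counts and CXCR2, the receptor shared by these chemokines, at most 7 counts in any library. The LCN2 receptor genes LRP2 and MC4R had at most 5 and 3 counts, and ACKR1, a chemokine scavenger, had 0 in all. The remaining LCN2 receptor gene, SLC22A17, had 20 to 71 counts (1.55 to 6.36 CPM) and was the only one tested, with log2 fold changes of -0.30 for OA and 0.48 for TN and adjusted p-values of 0.713 and 0.384 in edgeR's test. Because LCN2 and the chemokines are also made by neutrophils and macrophages, leukocyte markers were measured. Their 16 genes summed to at most 1.37 CPM in any library, 9 of them were at 0 in all 12, and PTPRC and S100A8 never exceeded 3 counts. Markers of fibroblasts and endothelium summed to 1.82 to 2.75 CPM in OA's DMSO group and 5.90 to 13.4 CPM with OA, mostly from COL1A1, and to 2.68 to 5.59 and 2.77 to 4.74 CPM in the TN experiment. COL1A1 had a log2 fold change of 2.02 ± 0.54 with OA and an adjusted p of 0.0723 in edgeR's test. It passed with the replicate block, at 1.86 ± 0.52 with an adjusted p of 0.0250, and was 1.34 ± 0.41 with 0.104 in edgeR's test without OA replicate 2. DCN, LUM and CDH5 never exceeded 3 counts. The part of these markers in the OA results was not tested.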

How the data were processed

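RNA-seq counts of 12 HCT116 libraries were analysed, and the authors had aligned the reads to hg38 with STAR and deposited raw counts per gene without normalization. Their tables of log2 fold changes, p-values, test statistics and mean levels came from DESeq2 and were not used. The labels name a stranded total RNA kit, whereas the study's methods describe mRNA sequencing.

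Counts were scaled by TMM, filtered with filterByExpr and tested in R 4.3.3 with the two-sided quasi-likelihood F test from edgeR 4.0.16, Benjamini-Hochberg adjusted across the genes tested, at a threshold of 0.05, separately for OA and TN. Standard errors were derived from the log2 fold change and the F statistic of each gene. CPM are counts scaled to library size and by TMM, log2 CPM used a prior count of 2, and levels per kb used the exon length of GENCODE genes on the same build. At most 3 counts in a library was treated as not resolved, with regard to counting error only. Replicate libraries differed by more than sampling noise, with a chi-square per gene of at least 6.25. All per-sample columns were mapped to libraries.

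The labels number the biological replicates alike in all groups. Across 13107 genes for OA and 13036 for TN, deviations from the group means of same-numbered libraries correlated at 0.73, 0.62 and 0.15 in OA and 0.71, 0.52 and 0.55 in TN, so the numbers were judged to pair libraries, and fits with the number as a block are given beside the unpaired fits, which were the main ones. In TN, libraries 2 and 3 also correlated across numbers, at 0.48 and 0.54. In OA, replicate 1 correlated with DMSO replicate 3 at 0.18, above the 0.15 of the libraries numbered 3. Nothing in the labels beyond the shared numbers states a pairing, and p-values measure the spread between these replicates.

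Alternatives were DESeq2 1.42.0, its size factors in edgeR, scaling to library totals or ACTB, a replicate block, no filter, a minimum of 10 counts per library, 1 fit of all 12 libraries, and fits without each library. Added after the data were seen were GC offsets (span 0.3, genes with a mean count of at least 20), fits without both libraries of a number, and the test of the replicate number. The 10 genes and all lists were chosen with earlier results of these data known. The named genes were all 10, all receptors, up to 8 passing genes per list and comparison or otherwise the 3 with the lowest p, and the 5 genes most correlated with LCN2 and with CXCL8. CXCL10, CCL5, COL1A1, TNF, IL6, CXCL5, IL1A, CCL20 and single markers were named after their values were seen. On simulated data, the test recovered 61% of genes changed by a factor of 4 in OA and 71% in TN, but 2% of those changed by a factor of 2 in each. The changed genes were drawn only from those above a minimum mean count. Recovery for genes with fewer counts, some of the 10 among them, is not known.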

Additional observations from a re-analysis of the deposited data

How the results depend on the processing

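Of the 10 genes, 4 passed with OA, and the number was 7 without the filter (5.52% of all genes), 7 with the replicate block (26.7%), 7 with GC offsets (16.4%), 8 with both GC offsets and the block (25.8%), 6 with DESeq2 (13.1%), ACTB scaling (9.71%) or 1 fit of all 12 libraries (10.9%), and 3 of 8 tested with at least 10 counts in every library (5.47%). LCN2 and CXCL3 were not tested under that last filter, where CXCL2, CXCL8 and NFKB2 passed. The number with OA ranged from 0 (without any 1 DMSO library, 0.02% to 0.0335% of all genes) to 7 (without OA replicate 1, 7.57%) when single libraries were left out. With TN, where 1 passed, the number was 2 without the filter (5.85%), 0 with at least 10 counts in every library (6 genes then tested, without LCN2, and 8.78%), 3 with GC offsets and the block (37.4%), and 8 without both libraries numbered 1 (42.8%), and it ranged from 0 to 1 when single libraries were left out. For the difference between stressors, where none passed in edgeR's test, 1 passed without the filter, CXCL8 (0.0801% of all genes). The replicate block otherwise changed no call among the 10 genes. All OA changes kept their sign. With TN, CXCL8 turned positive with the block (0.28), GC offsets (0.15) and both (0.38), and lay between -0.87 and 0.22 with single libraries left out. CXCL1 turned to 0.23 with ACTB scaling, 0.13 with the block, 0.054 with GC offsets and 0.21 with both, and lay between -0.55 and 0.69 with single libraries left out. NFKBIA turned to -0.084 with library totals and -0.28 without both libraries numbered 1, and lay between -0.17 and 0.30 with single libraries left out. The LCN2 difference between the stressors ranged from -1.60 (without OA replicate 2) to 2.37. The cause of these turns was not tested. Library totals moved the median of all genes to -0.23 in OA and -0.18 in TN, and ACTB scaling moved it to 0.42 and 0.30. The DMSO levels of LCN2, CXCL2 and CXCL3 were at or under 3 counts in single libraries and were not resolved there.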

Other observations

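The genes whose levels followed LCN2 and CXCL8 most closely were listed across the 12 libraries. With each library set against the mean of its own DMSO group, the genes most like LCN2 among 14070 were LINC00239, MYCL, SPINT2, SLC50A1 and PRPH, with Pearson r of 0.974 to 0.985. PRPH, for example, had log2 fold changes of 3.77 with OA and 3.81 with TN, a likeness that the choice of genes fixes. The genes most like CXCL8 were TRIM38, LAMP3, SLFN5, SAMD4A and CXCL2, with r of 0.953 to 0.991. TRIM38 had a log2 fold change of 1.21 with OA and -0.0043 with TN, and LAMP3 3.28 and 0.42, by the same choice. LCN2 and CXCL8 themselves correlated at 0.35, LCN2 and BIRC3 at -0.08, CXCL8 and BIRC3 at 0.81, and LCN2 and RELB at 0.78. These correlations describe 12 libraries that share treatments and depth and were not tested.

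Several genes that encode NF-kB inducers and classical targets were near 0 in all 12 libraries. TNF never exceeded 3 counts and IL6 never exceeded 2, and CXCL5 was at 0 throughout. Others of that list were not at 0. IL1A had 0, 4 and 0 counts in OA's DMSO libraries and 5, 26 and 1 with OA. CCL20 had 0, 2 and 1 counts against 4, 27 and 17, and neither gene passed the filter on low counts in the OA fit.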
